A study of Rattus norvegicus with 36 samples.

Results

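Rat extraocular muscle (EOM) was followed through the second postnatal week by setting day 14 against day 7 on Affymetrix rat arrays, which measure RNA through short probes grouped into probe sets. The samples were chosen by their titles: 3 EOM arrays of postnatal day 14 and 3 of day 7, together 6 of the 36 arrays of the study. The other arrays used beside them were leg muscle (gastrocnemius and soleus) at day 14 and day 7 and EOM at day 21 and day 0, with 3 arrays in each group. The labels name no strain, sex, genotype or treatment for any group, nor how the muscle was cleared of neighbouring tissue. Nothing in them ties a replicate to an animal of its own, and the p-values therefore cover the spread among these arrays alone, which may be technical.

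EOM are the small, very fast muscles that turn the eye, and they contain fibre types that limb muscle lacks, including fibres with a myosin heavy chain of their own, encoded by Myh13. In newborn rodents skeletal muscle still holds embryonic and perinatal contractile proteins, dividing precursor cells and an immature synapse with the motor nerve. During the weeks after birth the adult fast myosins, the adult acetylcholine receptor and the mitochondrial enzymes of fat oxidation are known to replace or join them, and the eyelids open.

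Levels are given as log2 of the array intensity, with intensities under 100 set to 100, so that 6.64 is the lowest level that can be shown. The 6 EOM arrays had median intensities of 476.9 to 578.1, and 18.6% to 22.0% of their values lay at the floor. Their brightest values lay between 14.45 and 14.94 on the log2 scale, so that differences that involve levels above about 14 may be compressed. Arrays correlated across probe sets at 0.918 to 0.94 within day 14, at 0.938 to 0.952 within day 7 and at 0.874 to 0.943 between the ages. The number of arrays, 3 a group, limits the precision. Myh13 marked the muscle as labelled: it stood at 14.24 ± 0.22 in EOM at day 14 and 11.25 ± 0.51 in EOM at day 7 (SD, n = 3 each), against 9.14 in leg at day 14 and 8.84 in leg at day 7. Des, the intermediate filament desmin of muscle, stood at 13.12 ± 0.04 in EOM at day 14 and 12.68 ± 0.33 at day 7. In whole tissue, fewer cells of a type and less RNA per cell cannot be told apart.

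Of 6783 probe sets bright enough to be tested, 412 (6.07%) differed between the ages at a Benjamini-Hochberg adjusted p under 0.05 in limma, 158 (2.33%) higher and 254 (3.74%) lower at day 14. When arrays were scaled to the same median instead, 174 were higher and 172 lower. Counted by gene, with each gene represented by its brightest probe set, 102 of 3939 genes (2.59%) were higher and 148 (3.76%) lower at day 14. The counts of every gene list below are to be read against these shares. The median difference of all genes was -0.06 on the log2 scale. The 3 day 14 arrays all lay above the 3 day 7 arrays for 402 genes (10.2%) and all below them for 572 (14.5%). Fast contractile genes were among the largest rises and epithelial genes among the largest falls, while genes of fat oxidation rose, and genes of cell division fell, by smaller amounts. Without day 14 replicate 1, day 7 replicate 1 or day 7 replicate 2 the count of probe sets was 230, 237 or 223.

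**Figure D1:**
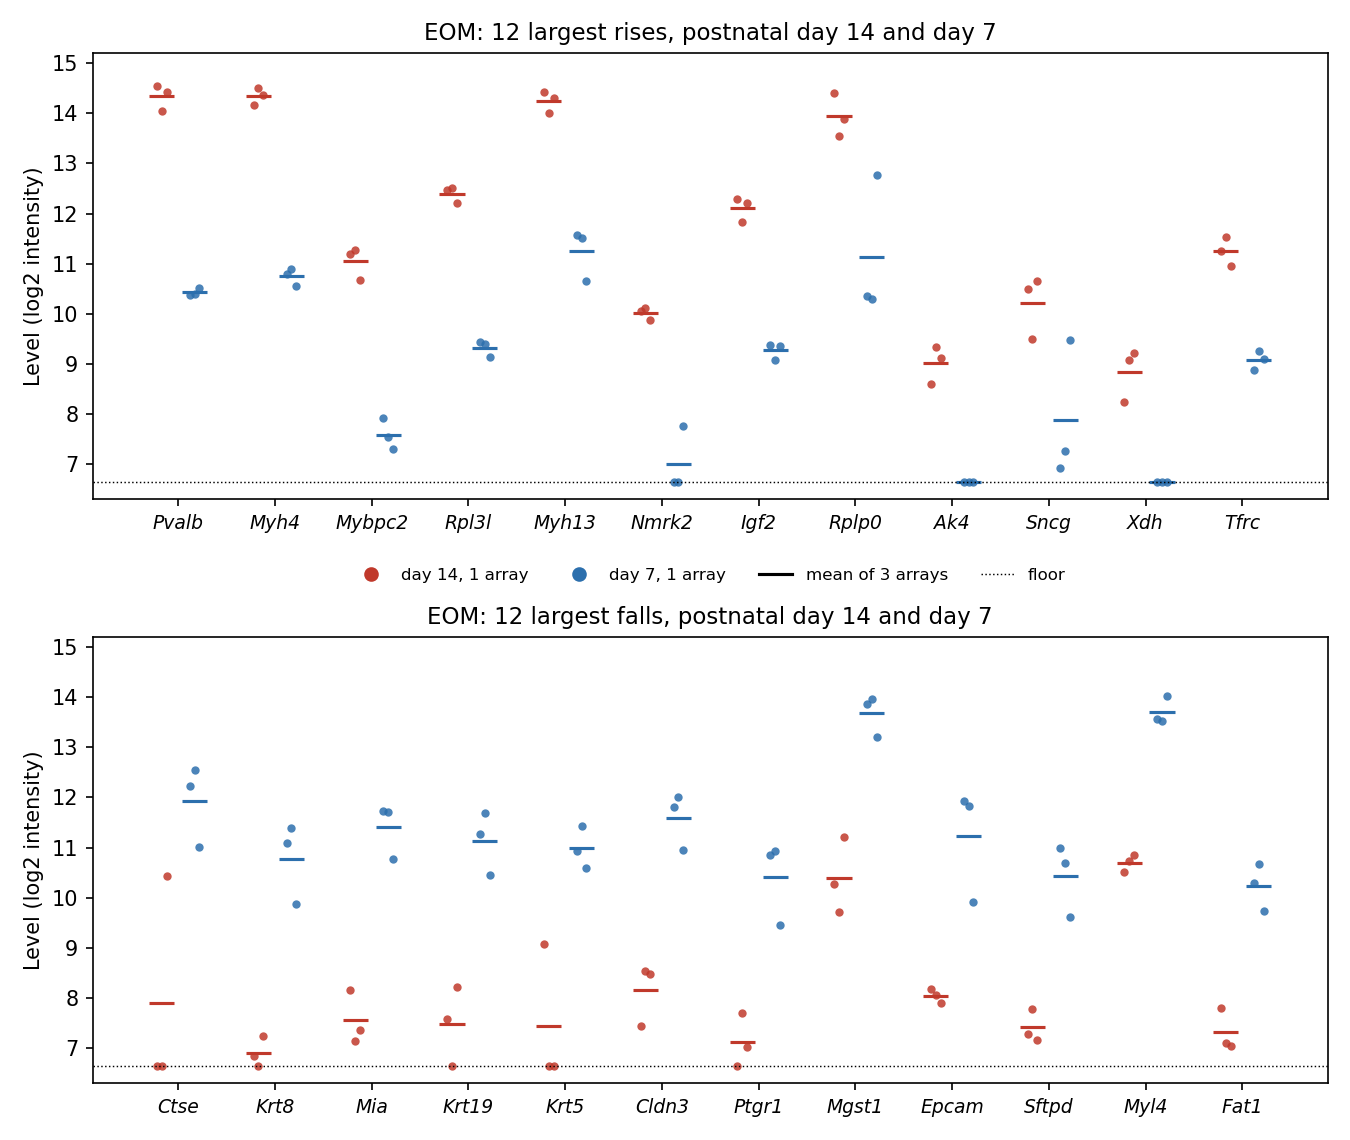
Level on each array (y axis, log2 intensity) of the 12 genes with the largest rises (upper panel) and the 12 with the largest falls (lower panel) in EOM, with 3 arrays at day 14 (red, left) and 3 at day 7 (blue, right), their mean (bar) and the floor (dotted). Pvalb, Myh4 and Myh13 reached means of 14.33, 14.34 and 14.24 at day 14. The day 14 means of Krt8, Krt19 and Krt5 lay within 1 log2 unit of the floor, with single arrays up to 8.22 for Krt19 and 9.07 for Krt5.

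Genes of the fast contractile apparatus were among the largest rises. In the list of adult fast fibre genes 6 of 15 tested members rose, where 2.59% of all genes did. None fell, and the median difference was 0.52, against -0.06 for all genes. Pvalb, the calcium buffer parvalbumin that speeds relaxation of fast fibres, was at 14.54, 14.04 and 14.42 on the day 14 arrays and at 10.37, 10.40 and 10.51 on the day 7 arrays. All day 14 arrays were thus more than 3 log2 units above all day 7 arrays, and the difference was 3.91 ± 0.33 (standard error of the fit, here and after each difference, adjusted p = 2.24e-09). Myh4, the heavy chain of type IIB myosin and the fastest of limb muscle, was at 14.16, 14.50 and 14.36 at day 14 and at 10.80, 10.90 and 10.55 at day 7. Its groups too were more than 3 log2 units apart, with a difference of 3.59 ± 0.37 (adjusted p = 8.61e-08).

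Myh13, the extraocular myosin, was at 14.43, 14.00 and 14.30 at day 14 and at 11.58, 11.51 and 10.66 at day 7. The rise was 3.00 ± 0.60 (adjusted p = 0.00136), with day 7 replicate 3 as the lowest array. Myh2, the heavy chain of type IIA myosin, rose by 2.11 ± 0.27 to 14.34 ± 0.10 at day 14, against 12.23 ± 0.46 at day 7 (SD, n = 3 each, adjusted p = 5.37e-06). Mybpc2, the fast form of myosin binding protein C, which stabilises thick filaments, started lower: it was at 11.20, 11.28 and 10.68 at day 14 and at 7.92, 7.55 and 7.31 at day 7. That rise of 3.46 ± 0.33 (adjusted p = 2.07e-08) left it well under its EOM mean of 13.67 at day 45.

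Rpl3l, a ribosomal protein made in striated muscle in place of Rpl3, rose by 3.08 ± 0.35 (adjusted p = 6.52e-07), with 12.40 ± 0.16 at day 14 and 9.32 ± 0.16 at day 7. The remaining 9 fast fibre members did not pass the test. Among them were Myh1, the heavy chain of type IIX myosin (-0.03 ± 0.34), the troponin Tnni2 (0.34), the calcium pump Atp2a1 (-0.42 ± 2.07) and the muscle creatine kinase Ckm (-0.89 ± 1.38), whose day 7 arrays ran from the floor to 13.26. Probe sets for myosin heavy chains can share sequence between relatives, so the split among Myh1, Myh2 and Myh4 is less certain than the values alone show.

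Few developmental contractile genes passed the test, and slow fibre genes moved in both directions. Of 16 tested members of the developmental list, 1 fell, 1 rose and 14 did not pass, with a median of -0.17. Among all genes 3.76% were lower and 2.59% higher. The member that fell was Myl4, the embryonic and atrial myosin light chain, at 10.52, 10.74 and 10.85 at day 14 and at 13.56, 13.53 and 14.03 at day 7. The groups did not overlap, and the fall was -3.00 ± 0.33 (adjusted p = 2.42e-07). Myh8, the perinatal myosin heavy chain, stood at 13.49 ± 0.07 at day 14 and 13.98 ± 0.33 at day 7, a difference of -0.49 ± 0.29 that did not pass (adjusted p = 0.399).

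Myh3, the embryonic myosin heavy chain, has 5 probe sets that disagree. Its brightest differed by 0.34 ± 0.39 (adjusted p = 0.743). Of the 4 others 3 were lower at day 14. Among these 1 passed, at 12.94 at day 14 and 13.86 at day 7 (-0.92 ± 0.27, adjusted p = 0.0367). The remaining one was at the floor on all day 7 arrays and at 14.3, 9.19 and 9.41 at day 14. It was higher without passing (4.32 ± 1.63, adjusted p = 0.124). The growth factor gene Igf2 was the member that rose, by 2.84 ± 0.66 (adjusted p = 0.00698) in its brightest probe set, at 12.28, 11.83 and 12.21 at day 14 and 9.37, 9.08 and 9.36 at day 7. Of its 4 other probe sets 2 differed in the opposite direction, one by -1.45 (adjusted p = 0.21), so no direction is settled for Igf2. The imprinted genes H19 (1.47 ± 0.64, adjusted p = 0.207) and Dlk1 (0.77 ± 0.61, adjusted p = 0.585) did not pass.

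In the slow fibre list 2 of 13 members rose, Myl3 and Fabp3 (2.16, given below with the fatty acid genes), and 1 fell (2 with replicate number as a block). Of the 13, 10 stood at an unadjusted p under 0.05 in limma, where 17.9% of all genes did. All day 14 arrays lay above all day 7 arrays for 5 of the 13 and below them for 4. The summed intensity was 125995 to 140088 at day 14 and 99228 to 105727 at day 7. Myl3, the slow and ventricular light chain, rose by 1.33 ± 0.29 to 13.17 ± 0.15 at day 14, against 11.84 ± 0.17 at day 7 (SD, n = 3 each). Casq2, the calsequestrin of slow and cardiac muscle, was at 11.76 at day 14 and 12.59 at day 7, a difference of -0.83 ± 0.23 (adjusted p = 0.0268) whose call was lost with median scaling and without any 1 array except day 7 replicate 1. Myh7, the slow myosin heavy chain, differed by 0.58 ± 0.21 without passing (adjusted p = 0.114). None of 10 dystrophin complex genes passed in limma, with 1 at an unadjusted p under 0.05, where 17.9% of all genes stood.

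The promoters of Myh4 and Mybpc2 are shown because both hold the E-box, the site class of the MyoD family of muscle factors. They are taken from RefSeq on the rat build GRCr8 and run from 250 bases before to 50 bases after the annotated start, 5′ to 3′ along the gene, with E-boxes (CANNTG, the same on both strands) in capitals.
Myh4 promoter window, chr10:52421898-52422197, plus strand: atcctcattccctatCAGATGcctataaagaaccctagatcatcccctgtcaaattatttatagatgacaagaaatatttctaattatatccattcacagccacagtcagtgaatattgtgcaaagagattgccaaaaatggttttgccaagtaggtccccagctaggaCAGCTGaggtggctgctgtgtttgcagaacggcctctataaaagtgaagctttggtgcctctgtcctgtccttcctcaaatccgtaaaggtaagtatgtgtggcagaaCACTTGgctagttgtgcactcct
Mybpc2 promoter window, chr1:104154052-104154351, minus strand: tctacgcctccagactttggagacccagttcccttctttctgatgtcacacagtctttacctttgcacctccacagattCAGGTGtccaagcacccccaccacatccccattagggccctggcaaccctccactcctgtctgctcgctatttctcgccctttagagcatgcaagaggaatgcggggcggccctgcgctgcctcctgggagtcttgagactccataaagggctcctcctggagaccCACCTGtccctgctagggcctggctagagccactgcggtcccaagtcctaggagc
Myh4 holds 3 E-boxes and Mybpc2 holds 2. An E-box was present in 71.6% of the 27457 promoter windows of that table, in 4 of the 5 matched fast fibre genes that rose and in 7 of the 8 matched ones that did not pass. A match describes the letters of the window only. The windows that the table lists for Pvalb and Myh13 are not shown because their starts are doubtful, and that of Pvalb is among the matched genes counted.

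At the neuromuscular junction 1 of the 5 acetylcholine receptor subunits measured, the adult one, passed the test. Chrne, the epsilon subunit that replaces the fetal one, was at 11.69, 11.63 and 11.40 at day 14 and at 10.26, 10.04 and 10.28 at day 7. Its arrays did not overlap, and the rise was 1.38 ± 0.24 (adjusted p = 0.000319). Chrng, the fetal gamma subunit, which EOM are known to keep in some adult synapses, was at 11.12 ± 0.19 at day 14 and 11.19 ± 0.25 at day 7, a difference of -0.07 ± 0.17 (adjusted p = 0.917). The subunits Chrna1 (0.14), Chrnb1 (0.04) and Chrnd (-0.06) did not pass either. In all 1 of 17 junction genes rose and 1 fell, with a median of 0.01, where 2.59% of all genes were higher and 3.76% lower. The one that fell was Cd24, a surface glycoprotein also found on epithelial and immature cells, at 9.52, 8.91 and 10.27 at day 14 and 12.54, 12.63 and 11.90 at day 7 (-2.79 ± 0.38, adjusted p = 1.1e-05).

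The Chrne window is shown for its N-box, the short element (CCGGAA, or TTCCGG on the other strand) known in promoters of synaptic genes, in capitals below on GRCr8 from RefSeq.
Chrne promoter window, chr10:55834105-55834404, minus strand: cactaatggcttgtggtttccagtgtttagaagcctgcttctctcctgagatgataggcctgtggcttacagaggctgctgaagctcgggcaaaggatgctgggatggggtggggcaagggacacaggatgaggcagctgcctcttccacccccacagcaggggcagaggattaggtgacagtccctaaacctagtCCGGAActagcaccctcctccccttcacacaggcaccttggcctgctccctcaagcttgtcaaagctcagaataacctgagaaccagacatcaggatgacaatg
The N-box was present once here and in 15.8% of all promoter windows.

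Of 25 tested fatty acid genes 10 rose and none fell, with a median of 0.60, where 2.59% of all genes were higher. The summed intensity of the list was 179121 to 185882 on the day 14 arrays and 103610 to 105912 on the day 7 arrays. Fabp3, the muscle fatty acid binding protein, was at 14.04, 14.35 and 14.20 at day 14 and 11.97, 11.91 and 12.23 at day 7. The groups were about 2 log2 units apart (2.16 ± 0.20, adjusted p = 9.19e-09). Acadm, the medium-chain acyl-CoA dehydrogenase, was at 13.27, 13.48 and 13.61 at day 14 and 11.30, 11.62 and 11.65 at day 7. It rose by 1.93 ± 0.18 (adjusted p = 1.38e-08).

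Enzymes before and after this step in the pathway rose as well. Acadvl, the very-long-chain dehydrogenase, rose by 1.79 ± 0.24, and Cpt2, the inner-membrane carnitine palmitoyltransferase, by 1.54 ± 0.22. Hadhb, of the trifunctional protein, rose by 1.23 and Acadl, the long-chain dehydrogenase, by 0.99. Slc25a20, the carnitine carrier (0.93), and Acsl1, which activates fatty acids (0.89), also rose. Cpt1a and Cpt1b, the outer-membrane transferases, did not pass (-0.26 and 0.44).

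In oxidative phosphorylation and the citrate cycle 9 of 37 members rose and none fell, with a median of 0.48. Ckmt2, the mitochondrial creatine kinase, led at 14.67, 14.19 and 14.54 at day 14 against 12.79, 12.75 and 13.25 at day 7 (1.53 ± 0.25, adjusted p = 0.000139). Got1, the cytosolic aspartate aminotransferase of the malate-aspartate shuttle, rose by 1.52 ± 0.20 (adjusted p = 5.78e-06). Cox6c, a cytochrome oxidase subunit, rose by 1.20 ± 0.24, although its other probe set had the opposite sign without passing, and Suclg1, of the citrate cycle, by 0.88 ± 0.16. With the brightest 5% of probe sets left out, 5 members rose. That setting takes bright members, Ckmt2 among them, out of the test, so its count has a smaller base. Without day 7 replicate 2 the count was 4.

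In glycolysis and glycogen use 4 of 21 rose and none fell, with a median of 0.34, where 2.59% of all genes were higher. Slc2a4, the insulin-responsive glucose transporter GLUT4, was at 12.77, 12.73 and 12.83 at day 14 and 11.54, 10.95 and 11.25 at day 7. It rose by 1.53 ± 0.20 (adjusted p = 4.52e-06). Pygm, the muscle glycogen phosphorylase (0.82 ± 0.20), Phkg1, a phosphorylase kinase subunit (0.70 ± 0.20), and Pgam2, the muscle phosphoglycerate mutase (0.63 ± 0.16), were the others that rose. The glycolytic count was 2 without day 14 replicate 2, day 7 replicate 1 or day 7 replicate 2, and 1, Slc2a4, when only the 6 arrays were fitted. Pygm and Phkg1 also lost the call without day 14 replicate 1 or day 7 replicate 3. Beside these rises, 3 of 13 adipocyte markers rose (Slc2a4, Cd36 and Fabp4, all of which muscle also expresses) and none fell. The share of all genes that rose was 2.59%. The list had 10 of 13 members with a positive difference and a median of 0.75, the highest of the 26 lists. All day 14 arrays lay above all day 7 arrays for 7 of the 13, and for 10.2% of all genes. Of the other fat cell markers, Lep (0.23), Cfd (0.95), Cebpa (0.47) and Pparg (-1.28) did not pass. The summed intensity of the adipocyte list was 45679 to 49615 at day 14 and 29979 to 34728 at day 7, and its part in the rises was not tested. The adipocyte count was 1 without day 7 replicate 2 or when only the 6 arrays were fitted.

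Other large rises fell outside these groups. Nmrk2, a muscle kinase of nicotinamide riboside, was at 10.05, 10.12 and 9.87 at day 14, against 2 arrays at the floor and 1 at 7.76 at day 7 (3.00 ± 0.63, adjusted p = 0.00228). Ak4, a mitochondrial adenylate kinase, was at 8.61, 9.33 and 9.11 at day 14 and at the floor on all day 7 arrays, which makes it at least 5.19-fold higher (adjusted p = 0.000775). Xdh, xanthine dehydrogenase, was likewise at the floor at day 7 and at least 4.62-fold higher at day 14 (adjusted p = 0.00345). It lost the call with the floor at 200 (adjusted p = 0.0891). Tfrc, the transferrin receptor that brings iron into cells, rose by 2.17 ± 0.34 to 11.25 ± 0.29 at day 14, against 9.08 ± 0.19 at day 7 (SD, n = 3 each). Sncg, gamma-synuclein of neurons and fat cells, differed by 2.33 ± 0.65 (adjusted p = 0.0272), with 9.48 on day 7 replicate 3 against 9.50 on day 14 replicate 2, so that the groups nearly met, and the call was lost without day 14 replicate 1 or 3 or day 7 replicate 1 or 2. Rplp0, a ribosomal stalk protein, rose by 2.81 ± 0.58 with day 7 values of 10.35, 10.30 and 12.76, while 33 of 34 ribosomal protein genes did not pass.

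**Figure D2:**
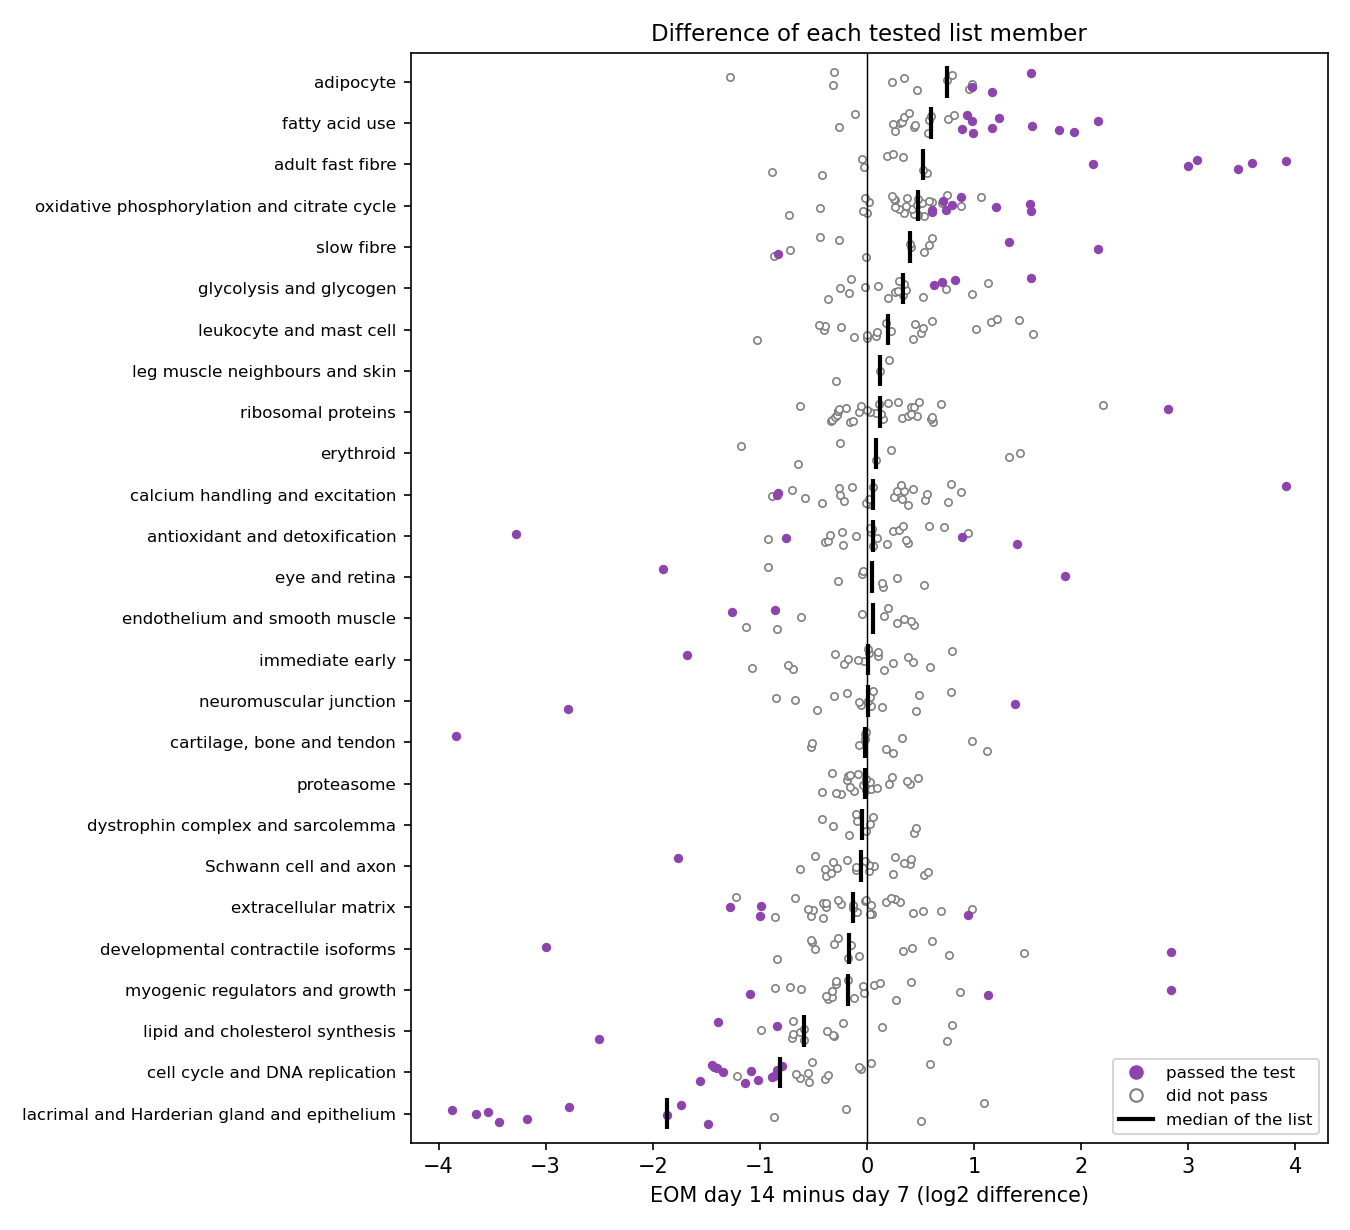
EOM difference, day 14 minus day 7 (x axis, log2), of every tested member of the 26 gene and marker lists (rows, ordered by median), with members that passed the test filled, the others open, and the list median as a black bar. The medians ran from -1.87 for gland and epithelium markers and -0.81 for the cell cycle to 0.60 for fatty acid use and 0.75 for adipocyte markers.

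In the list of cell cycle and DNA replication genes 12 of 24 tested members fell and none rose, with a median of -0.81, and the summed intensity was 83317 to 86280 at day 14 and 112965 to 125349 at day 7. Top2a, the topoisomerase of dividing cells, was at 10.73, 10.76 and 11.36 at day 14 and 12.54, 12.24 and 12.41 at day 7. The highest day 14 array lay below the lowest day 7 array (-1.45 ± 0.26, adjusted p = 0.000452). Pcna, the sliding clamp of DNA polymerase, was at 10.66, 11.74 and 12.19 at day 14 and 12.70, 12.87 and 13.22 at day 7. Its groups did not overlap (-1.40 ± 0.31, adjusted p = 0.00457), but without day 14 replicate 1 the difference was -0.96 and did not pass (adjusted p = 0.0809).

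Ccnd2, a cyclin of early G1 phase, fell (-1.56 ± 0.26, adjusted p = 0.000214), with 9.90, 9.65 and 11.17 on the day 14 arrays, against 11.79, 11.83 and 11.79 at day 7. Mcm6, of the replicative helicase, fell to 10.38 ± 0.22 at day 14, against 11.72 ± 0.14 at day 7 (SD, n = 3 each), a difference of -1.34 ± 0.24. Cdk1, the mitotic kinase, was at 9.65, 10.10 and 10.04 at day 14 and 10.48, 11.06 and 10.91 at day 7 (-0.89 ± 0.25, adjusted p = 0.0324). Its partner Ccnb1, cyclin B1, was at 9.93, 7.96 and 9.85 at day 14 and 10.26, 10.57 and 10.34 at day 7, and passed only narrowly (-1.14 ± 0.35, adjusted p just under the threshold, 0.05 when rounded). Ccnd3, Cdk4, Nap1l1, Ncl, Stmn1 and Pold1 were the other members that fell. The list had 7 members lower with median scaling, 4 when only the 6 arrays were fitted, and 7 without day 14 replicate 1 or day 7 replicate 3.

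The windows of Top2a, Cdk1 and Ccnb1 are shown for the CCAAT box (CCAAT, or ATTGG on the other strand), the element bound by NF-Y in many promoters of mitotic genes, given in capitals on GRCr8 from RefSeq.
Top2a promoter window, chr10:84473044-84473343, minus strand: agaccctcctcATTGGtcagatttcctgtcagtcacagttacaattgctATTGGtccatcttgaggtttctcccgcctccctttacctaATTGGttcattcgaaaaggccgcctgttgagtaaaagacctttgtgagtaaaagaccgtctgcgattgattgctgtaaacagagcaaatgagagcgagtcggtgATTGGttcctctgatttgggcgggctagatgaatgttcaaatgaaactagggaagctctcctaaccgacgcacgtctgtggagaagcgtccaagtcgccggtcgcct
Cdk1 promoter window, chr20:19265043-19265342, plus strand: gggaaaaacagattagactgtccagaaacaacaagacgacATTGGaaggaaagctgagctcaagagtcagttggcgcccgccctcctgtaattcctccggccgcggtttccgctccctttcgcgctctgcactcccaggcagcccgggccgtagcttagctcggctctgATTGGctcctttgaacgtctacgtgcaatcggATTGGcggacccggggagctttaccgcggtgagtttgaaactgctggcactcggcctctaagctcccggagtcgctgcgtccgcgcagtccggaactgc
Ccnb1 promoter window, chr2:33655176-33655475, minus strand: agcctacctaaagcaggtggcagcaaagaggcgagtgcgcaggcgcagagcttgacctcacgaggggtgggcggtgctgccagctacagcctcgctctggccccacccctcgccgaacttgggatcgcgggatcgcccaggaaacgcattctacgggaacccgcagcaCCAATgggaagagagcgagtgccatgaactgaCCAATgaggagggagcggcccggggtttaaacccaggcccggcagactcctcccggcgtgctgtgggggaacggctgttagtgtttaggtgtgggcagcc
Top2a holds 4 CCAAT boxes, Cdk1 holds 3 and Ccnb1 holds 2, counting both strands. A CCAAT box was present in 9 of the 11 matched cell cycle genes that fell (81.8%), in 7 of the 11 matched ones that did not pass (63.6%) and in 37.7% of all windows.

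The steepest falls were in genes of epithelia. Of 13 tested markers of lacrimal and Harderian gland and epithelium, glands and linings that lie beside these muscles in the orbit, 9 fell and none rose, with a median of -1.87. Krt8, a keratin of simple epithelia, was at 6.85, 6.64 and 7.25 at day 14 and 11.09, 11.39 and 9.87 at day 7. It was near the floor on every day 14 array (-3.87 ± 0.38, adjusted p = 3.14e-08). Cldn3, a claudin of epithelial tight junctions, was at 7.44, 8.54 and 8.48 at day 14 and 11.82, 12.01 and 10.95 at day 7 (-3.44 ± 0.56, adjusted p = 0.000139). Epcam, the epithelial cell adhesion molecule, was at 8.19, 8.06 and 7.90 at day 14 and 11.93, 11.84 and 9.91 at day 7 (-3.17 ± 0.49, adjusted p = 7.24e-05).

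Krt19 (-3.65 ± 0.48) and Krt5, of basal epithelial cells (-3.54 ± 0.86), were at the floor on 1 and 2 of the 3 day 14 arrays. Krt5 did not pass without day 14 replicate 2 (-3.13, adjusted p = 0.0626) or without day 7 replicate 2 (-3.31, adjusted p = 0.0558). Lgals7, Krt18, Muc1 and Aqp5, the water channel of gland cells, also fell, with differences of -2.78 to -1.48. Krt14, Lcn2, Cst3 and the secretory gene Pip (1.09) did not pass.

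The summed intensity of these 13 markers was 12047, 11105 and 13335 on day 14 replicates 1, 2 and 3 and 26920, 28696 and 19302 on the day 7 ones. Day 7 replicate 3 was the lowest of its group for 11 of the 13 markers, and none of the 13 was at the floor on all day 14 arrays. Among all 148 genes that fell, day 7 replicate 3 was the array closest to day 14 for 86 (58.1%). Without it 9 epithelial markers still fell, and without day 7 replicate 2 the count was 6. In leg none of the 13 changed in limma, where their median difference was -0.21. Krt8 in leg was at 7.92 at day 7 and at the floor on all day 14 arrays (-1.28, adjusted p = 0.054). A fall as large as in EOM could therefore not be shown for it in leg.

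**Figure D3:**
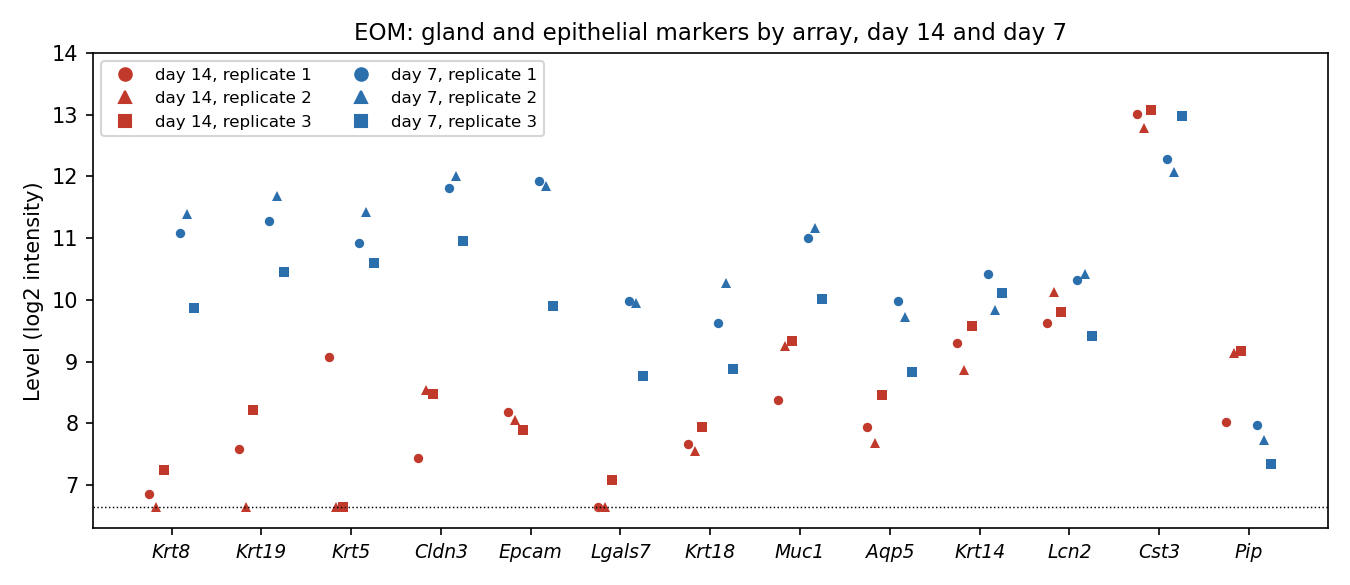
Level (y axis, log2 intensity) of the 13 gland and epithelial markers on each EOM array, day 14 (red, left) and day 7 (blue, right), with a symbol for each replicate and the floor dotted. The 9 markers from Krt8 to Aqp5 stood lower at day 14, and day 7 replicate 3 (blue squares) lay under the other day 7 arrays for most of them.

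Further large falls ran beside the epithelial ones, and the part of the epithelial markers in them was not tested. Mia, which cartilage and pigment cells secrete, was at 8.17, 7.15 and 7.37 at day 14 and 11.73, 11.72 and 10.77 at day 7 (-3.84 ± 0.35, adjusted p = 6.65e-09). It was the only one of 12 cartilage, bone and tendon markers that passed, where 3.76% of all genes were lower. Ctse, the protease cathepsin E, was at the floor on 2 day 14 arrays and at 10.43 on the third, against 12.23, 12.55 and 11.01 at day 7 (-4.02 ± 0.88, adjusted p = 0.00372). When only the 6 arrays were fitted it did not pass (adjusted p = 0.1).

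Mgst1, a membrane glutathione transferase, was at 10.27, 9.71 and 11.21 at day 14 and 13.86, 13.96 and 13.21 at day 7 (-3.28 ± 0.61, adjusted p = 0.00067). Ptgr1, a reductase of prostaglandins (-3.30 ± 0.65), Sftpd, the collectin surfactant protein D of mucosal surfaces (-3.02 ± 0.54), and Fat1, a large cadherin (-2.91 ± 0.43), fell by similar amounts. Each had day 7 replicate 3 as its lowest day 7 value. Sox10, the neural crest and Schwann cell factor, was at 8.79, 9.33 and 8.84 at day 14 and 11.04, 11.26 and 9.93 at day 7 (-1.76 ± 0.42, adjusted p = 0.00932) and was the 1 of 22 Schwann cell and axon markers that passed. Its call was lost without day 7 replicate 1 or 2. Pax6, a factor of eye and lens development, was at the floor on all day 14 arrays and at 9.07, 8.99 and 7.56 at day 7, at least 3.72-fold lower at day 14 (adjusted p = 0.000139). Myoc, myocilin of the eye's outflow tissue and of muscle, moved the other way (1.85 ± 0.33, adjusted p = 0.000452), and the other 8 of 10 eye markers did not pass. Beside the Schwann cell and eye counts, 2.59% of all genes were higher and 3.76% lower.

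Most sterol synthesis genes had negative differences, though few of them and few matrix genes passed the test. In lipid and cholesterol synthesis 3 of 17 fell and none rose, with a median of -0.59, where 3.76% of all genes were lower. The difference was negative for 14 of the 17. All day 14 arrays lay below all day 7 arrays for 10 of them, and for 14.5% of all genes. The summed intensity was 37290 to 44878 at day 14 and 50938 to 58668 at day 7. Cyp51, lanosterol demethylase, was at 8.62, 6.64 and 10.37 at day 14 and 10.98, 10.76 and 11.40 at day 7 (-2.50 ± 0.48, adjusted p = 0.000955), with the day 14 arrays far apart. This rests on 1 of 5 probe sets: the others differed by -1.12, -0.65, -0.42 and 0.14, and none of them passed (adjusted p of 0.234 to 0.937). Sqle, squalene epoxidase (-1.39 ± 0.38, adjusted p = 0.0217), and Msmo1, a sterol oxidase (-0.84 ± 0.25, adjusted p = 0.0444), fell less. The calls of both were lost with median scaling (Sqle also without any 1 of the 6 arrays, and Msmo1 without any but day 14 replicate 3), and that of Cyp51 when only the 6 arrays were fitted (adjusted p = 0.185).

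Of 33 extracellular matrix genes 1 rose and 3 fell (5 with replicate number as a block). Of all genes 2.59% were higher and 3.76% lower, and 1 rise in 33 is near the first of these shares. Col15a1, a basement membrane collagen, rose by 0.94 ± 0.23, while Lox, the enzyme that crosslinks collagen, fell (-1.28 ± 0.31, adjusted p = 0.0101) and Col12a1, a fibril-associated collagen, fell by 1.00 ± 0.26 (adjusted p = 0.0159). Mmp14 was the other member that fell (-0.99 ± 0.31, adjusted p = 0.0499), and its call was lost under 11 of 16 alternatives. Without day 14 replicate 1 or day 7 replicate 3 no matrix gene fell, and without day 7 replicate 2 the count was 1. Of 12 endothelial and smooth muscle markers 2 fell, Tagln, transgelin of smooth muscle (-1.26 ± 0.28), and Tpm2, a tropomyosin that skeletal muscle also makes (-0.86 ± 0.18), while the endothelial genes Pecam1 (-0.05) and Vwf (0.20) did not pass.

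Few members of the next lists passed, where 2.59% of all genes were higher and 3.76% lower. Among myogenic regulators 2 of 21 rose by their brightest probe set. These were Igf2, whose probe sets disagree, and Id1 (1.13 ± 0.35, adjusted p = 0.0477). The 1 that fell was Id2 (-1.09 ± 0.28, adjusted p = 0.0158). Both Id genes encode inhibitors of the MyoD family. The Id1 call was lost under 10 of 16 alternatives, among them median scaling and the fit of only the 6 arrays. It was also lost without any 1 array but day 7 replicate 3. That of Id2 was lost without day 14 replicate 1 or day 7 replicate 1 or 2. In the antioxidant list 2 of 25 rose, with Gpx3, a secreted glutathione peroxidase, by 1.40 ± 0.27, and 2 fell, Mgst1 and Gsta4. The Gsta4 call was lost under 9 of 16 alternatives, including median and quantile scaling and the omission of any 1 array. In calcium handling 1 of 27 rose, Pvalb, and 2 fell, Casq2 and Camk2d. The probe sets of Camk2d disagree, with another higher by 1.21 (adjusted p = 0.0358), and the call was lost under 5 of 16 alternatives (median scaling, only the 6 arrays fitted, and without day 14 replicate 1 or day 7 replicate 2 or 3). Klf6 was the 1 of 19 immediate early genes that fell (-1.68 ± 0.46; 2 fell with replicate number as a block), and its call was lost with median scaling and without day 14 replicate 1 or day 7 replicate 1 or 2. None of 23 proteasome genes, 22 leukocyte and mast cell markers, 7 erythroid markers or 3 skin markers passed in limma. Their counts at an unadjusted p under 0.05 were 2, 5, 1 and 0, where 17.9% of all genes stood. Of the 22 leukocyte and mast cell markers 16 had positive differences. All day 14 arrays lay above all day 7 arrays for 8 of the 22, and for 10.2% of all genes. Their summed intensity was 19428 to 25307 at day 14 and 14512 to 18939 at day 7. These counts take the brightest probe set of each gene, and Cd74, the invariant chain of antigen-presenting cells, had another that passed (2.41 ± 0.64, adjusted p = 0.0197). Its brightest passed with replicate number as a block (1.55, adjusted p = 0.0436, against 0.0791 without the block).

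Levels at other ages place the week within development. The median EOM level of the 102 genes that rose was 10.27, 10.95, 12.33, 12.49, 12.67 and 12.59 at days 0, 7, 14, 21, 28 and 45. For the 148 that fell it was 11.65, 11.39, 10.09, 9.88, 9.88 and 9.94. Since the genes were chosen on days 7 and 14, the step between these ages is given by that choice, and the other ages are the new values. On the 6 EOM arrays of day 21 and day 0, which entered that choice only through the pooled variance and the brightness filter, 96 of the 102 were higher and 129 of the 148 lower at day 21 in limma, where 10.2% and 17.6% of all genes were called in these directions. By probe set, 692 were higher and 1150 lower at day 21, or 978 higher and 655 lower with median scaling. Myh4 and Mybpc2 differed by 6.13 and 6.53 between day 21 and day 0, Fabp3 by 3.95, Top2a by -2.42 and Krt8 by -5.37.

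**Figure D4:**
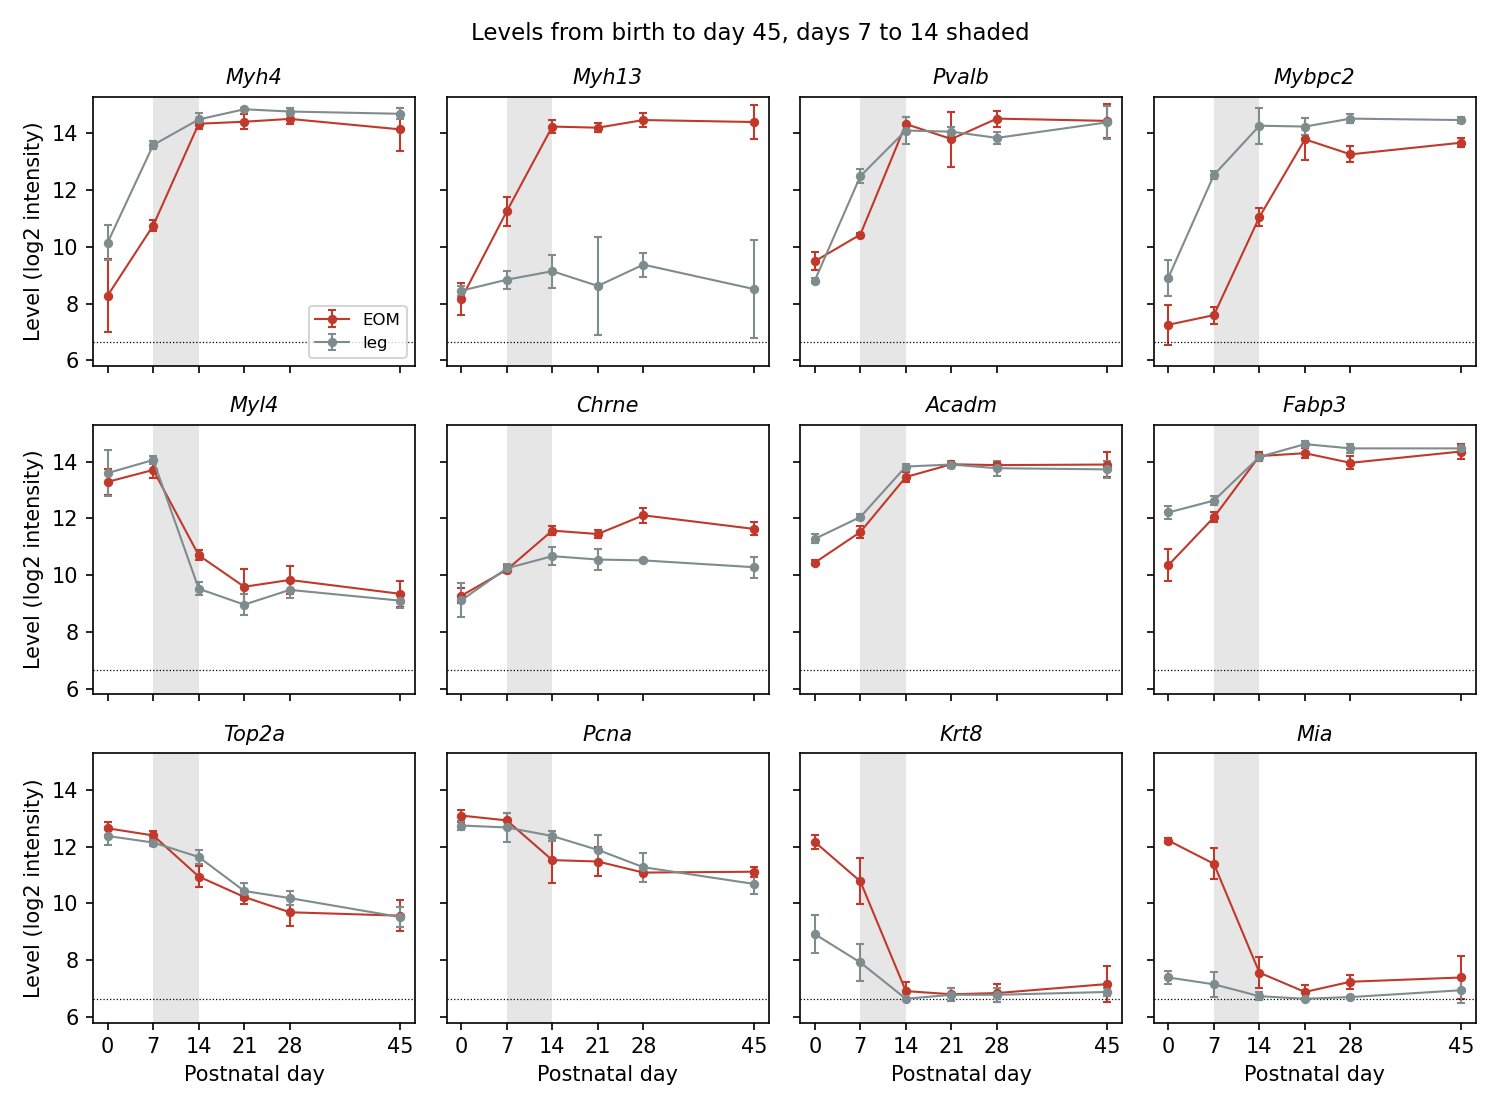
Mean level (y axis, log2 intensity) of 12 genes at postnatal days 0 to 45 (x axis) in EOM (red) and leg (grey), with bars for the SD of 3 arrays, days 7 to 14 shaded and the floor dotted. Myh4, Myh13 and Pvalb in EOM reached about 14 at day 14 and stayed there, Krt8 and Mia were near the floor from day 14, and Top2a was at 9.57 in EOM at day 45.

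Leg muscle passed through the same week on separate arrays. Of the 102 genes that rose in EOM 96 (94.1%) also had a positive difference in leg, as had 46.6% of all genes, and 35 passed there (34.3% of the EOM genes and 44.9% of the 78 that rose in leg, 1.98% of all genes). Of the 148 that fell 125 (84.5%) had a negative difference in leg, as had 53.4% of all genes, and 25 passed (16.9% of the EOM genes and 30.9% of the 81 that fell in leg, 2.06% of all genes). By probe set 261 (3.85%) differed in leg. Among shared rises, Acadm rose by 1.93 in EOM and 1.78 in leg. Myh2 rose by 2.11 in EOM and 2.28 in leg, and Tfrc by 2.17 in EOM and 2.63 in leg. The Myl4 fall was -3.00 in EOM and -4.54 in leg.

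A test of the difference itself, the EOM change minus the leg change, passed for 20 of 3939 genes (0.508%), 7 with the higher and 13 with the lower change in EOM. Myh4 was at 14.16, 14.50 and 14.36 in EOM at day 14 and 10.80, 10.90 and 10.55 at day 7, against 14.74, 14.42 and 14.31 in leg at day 14 and 13.50, 13.54 and 13.74 at day 7. Both muscles thus stood at similar levels at day 14, and leg had been nearly 3 log2 units ahead at day 7. The difference of the changes was 2.69 ± 0.53 (adjusted p = 0.00918). For Pvalb, at 12.49 in leg at day 7, it was 2.29 ± 0.47 (adjusted p = 0.0126). The leg arrays had maxima of 14.65 to 15.11, near these day 14 levels, and the part of the top of the scale in the difference was not tested. The Pvalb call was lost without EOM day 14 replicate 1, EOM day 7 replicate 2 or leg day 14 replicate 2 (adjusted p up to 0.062). For Myh13, whose leg difference was 0.30 ± 0.60, the test did not pass (2.70 ± 0.84, adjusted p = 0.2).

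Klk1, a tissue kallikrein, moved in opposite directions: it was at 13.73, 14.15 and 13.19 in EOM at day 14 and 11.64, 11.85 and 12.09 at day 7, against 12.55, 12.36 and 12.91 in leg at day 14 and 13.93, 13.97 and 13.62 at day 7. No arrays of the ages overlapped in either muscle, and the changes differed by 3.07 ± 0.41 (adjusted p = 0.000189). Kallikrein genes form a family of near-identical copies, so the member measured is uncertain. Ak4, at the floor on all leg arrays of day 14 and on 1 of day 7, had the largest positive difference of the changes (3.55 ± 0.64, adjusted p = 0.00352). Chrnd, the delta subunit of the acetylcholine receptor, was at 10.75, 10.98 and 10.68 in EOM at day 14 and 10.86, 10.84 and 10.88 at day 7, whereas leg was at 10.50, 10.87 and 10.58 at day 14 and 11.89, 11.77 and 11.77 at day 7. It fell in leg while the EOM groups overlapped (1.10 ± 0.26, adjusted p = 0.0364). That call was lost under 11 of 22 alternatives (adjusted p up to 0.14), among them the omission of any 1 array except EOM day 14 replicate 3 and leg day 14 replicate 2. The same test for Chrne did not pass (0.96 ± 0.34, adjusted p = 0.346).

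**Figure D5:**
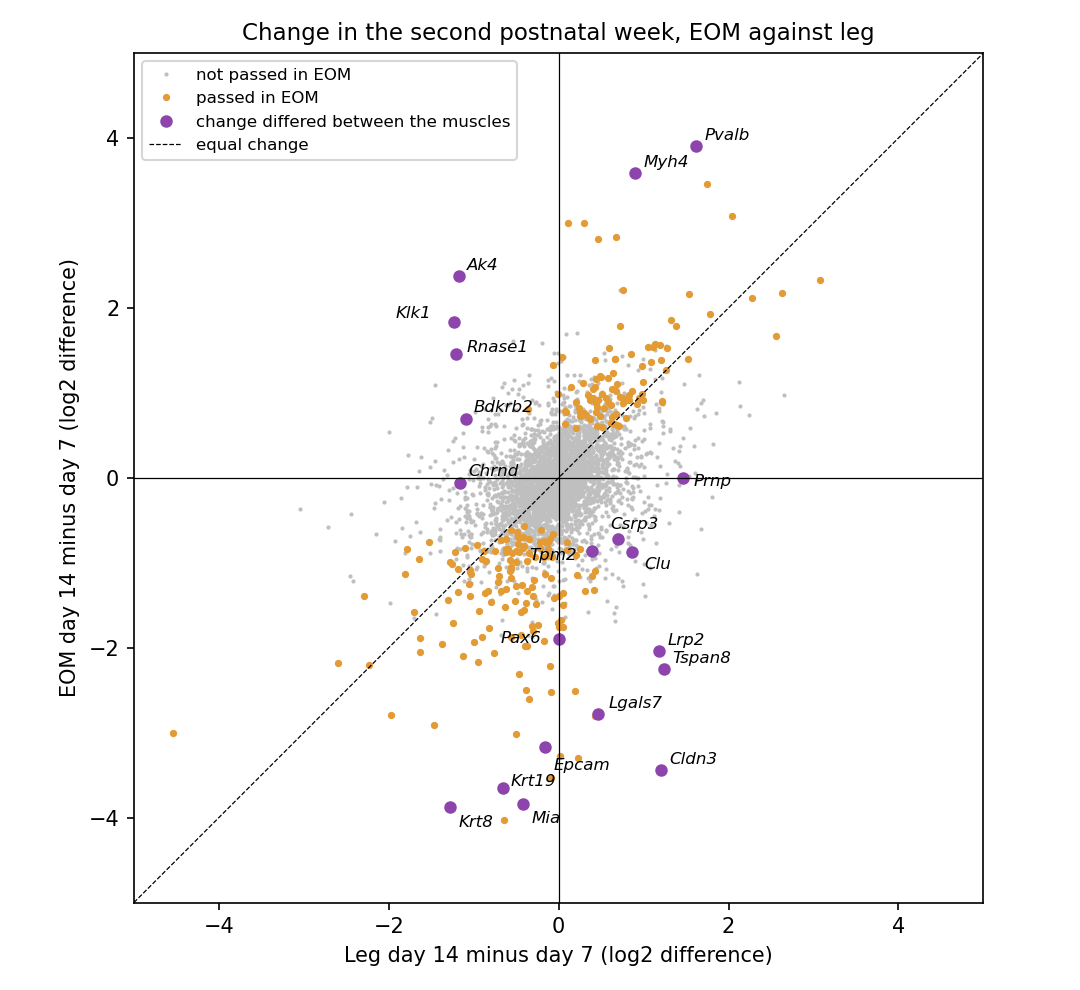
Day 14 minus day 7 difference (log2) in EOM (y axis) against leg (x axis) for 3939 genes, with genes that passed in EOM in orange and the 20 whose change differed between the muscles in purple. Klk1, Ak4, Rnase1 and Bdkrb2 lie at positive EOM and negative leg differences, and the epithelial genes Cldn3, Krt8, Krt19, Epcam and Lgals7 lie far below the line of equal change.

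Of the 13 genes with the lower change in EOM, 5 were on the gland and epithelium list. Of the 13 gland and epithelial markers 5 passed this test, led by Cldn3 (-4.64 ± 0.80, adjusted p = 0.00261), whose leg arrays were at 7.88, 9.82 and 9.12 at day 14 and 8.02, 7.36 and 7.85 at day 7. Cldn3 passed under all 22 alternatives, whereas Epcam and Krt19 each lost the call under 12 of them, Lgals7 under 13 and Krt8 under 7, each without EOM day 7 replicate 1 or 2 among others (adjusted p up to 0.186). Mia (-3.43 ± 0.49, adjusted p = 0.000303) was near the floor in leg at both ages. The leg levels of Cldn3 and Krt8 at day 7 left too little room above the floor for a fall as large as in EOM. Tspan8, a tetraspanin of epithelia, and Lrp2, the endocytic receptor megalin, differed by -3.50 ± 0.56 and -3.22 ± 0.64. Prnp, the prion protein gene, was at 12.78 in EOM at both ages but 1.46 ± 0.21 higher at day 14 in leg (adjusted p = 4.84e-05), and the changes differed by -1.47 ± 0.30 (adjusted p = 0.0127), a call lost under 7 of 22 alternatives. Csrp3, the muscle LIM protein, differed by -1.43 ± 0.32 (adjusted p = 0.0313), at 12.12 in EOM at day 14 and 12.84 at day 7, against 13.72 in leg at day 14 and 13.02 at day 7. Its call was lost with median scaling and without any 1 array except EOM day 14 replicate 3 and leg day 14 replicate 1.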

How the data were processed

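Total RNA of EOM and leg muscle was hybridised to Affymetrix rat arrays, per the labels. The authors deposited linear intensity values of 8799 probe sets, which share a trimmed mean of 1499.8 on all arrays and so carry a common scaling. The program behind them is not stated in the sources used here. Intensities were floored at 100 and turned to log2; the log2 scale was computed here from the deposited values. Testing took in probe sets, other than 59 controls, with more than 300 on at least 3 of the 36 arrays.

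Group means over 12 groups were fitted with limma 3.58.1 in R 4.3.3 (eBayes with a trend, 24 residual and 5.88 prior degrees of freedom), with Benjamini-Hochberg adjustment over 6783 probe sets in each contrast and a threshold of 0.05. The standard error pools the spread of all 12 groups. The fit was tested on simulated data. Platform annotation named a single gene for 7018 probe sets, several for 308 and none here for 1426, and 3923 of 3939 gene identifiers matched the RefSeq gene table. Named genes are the 12 largest changes each way with groups that do not overlap, the 6 largest differences of the changes each way, up to 4 members of each list that passed (or up to 2 where none did), and 12 genes followed throughout. Chrnd, Prnp, Csrp3, Clu and other genes outside this rule were chosen after their values were seen. Promoter windows come from RefSeq tables. The members and the 26 lists were chosen with earlier results of these data known. Alternatives changed the floor, filter, scaling, variance trend, arrays fitted and arrays left out. Deviations from the group means of same-numbered EOM arrays of day 14 and day 7 correlated at 0.16, 0.17 and 0.30 (numbers 1, 2 and 3). Those of different number correlated at -0.19 to 0.036, but deviations cancel within a group, so this range is not separate evidence. In leg the same-numbered values were 0.07, 0.056 and 0.048. Same-numbered EOM arrays may thus be related, which the labels do not state. The main fit has no replicate term, and the block was run as an alternative. Plots used matplotlib 3.10.9 (python 3.11.15).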

Additional observations from a re-analysis of the deposited data

Results flagged for a closer look

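The EOM change minus the leg change, each day 14 minus day 7, was tested as an interaction in limma, and the 20 genes that passed are given here on the log2 scale. Higher changes in EOM were 3.55 for Ak4, 3.07 for Klk1, 2.69 for Myh4, 2.66 for Rnase1 (a secreted ribonuclease), 2.29 for Pvalb, 1.79 for Bdkrb2 (a bradykinin receptor) and 1.10 for Chrnd. Lower changes among epithelial markers were -4.64 for Cldn3, -3.25 for Lgals7, -3.02 for Epcam, -3.00 for Krt19 and -2.59 for Krt8. Outside that list they were -3.50 for Tspan8, -3.43 for Mia, -3.22 for Lrp2, -1.90 for Pax6, -1.73 for Clu (the chaperone clusterin), -1.47 for Prnp, -1.43 for Csrp3 and -1.26 for Tpm2. Of the 20, 5 (Ak4, Cldn3, Klk1, Mia and Myh4) passed under every alternative run, and 7 (these with Pvalb and Tpm2) under every one that kept all arrays. Bdkrb2 was called with its EOM difference of 0.70 not passing (adjusted p = 0.172) and the leg day 14 arrays at the floor, as were both leg ages for Pax6. Krt8 was also at the floor on all leg arrays of day 14.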

How the results depend on the processing

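Among the 89 named genes none of the 71 called ones changed sign (Chrng and Myh1, not called and near 0, did). The balance of higher and lower probe sets turned over with median scaling: for EOM day 14 minus day 7 to 174 higher and 172 lower, against 158 and 254. For EOM day 14 minus day 7 the 412 called probe sets became 165 when only the 6 arrays were fitted and 223 to 399 when 1 array was left out (230 without day 14 replicate 1, 237 without day 7 replicate 1, 223 without day 7 replicate 2); the other settings, which kept all arrays, gave 346 to 537. Leg, with 261, gave 135 with only its groups fitted and 161 to 278 with 1 array left out (161 to 169 without day 14 replicate 1 or 2 or day 7 replicate 1 or 2). The difference of the changes, with 33, gave 55 with the floor at 200, 19 with only the groups compared, and 13 to 56 with 1 array left out (56 without EOM day 14 replicate 3, 19 without EOM day 14 replicate 1 or EOM day 7 replicate 1, 13 without EOM day 7 replicate 2, 21 without leg day 14 replicate 2, 18 without leg day 7 replicate 1). EOM day 21 minus day 0, with 1842, had 692 higher and 1150 lower, or 978 and 655 with median scaling, which moved the median of all probe sets to 0.081 from -0.19. Fitting fewer arrays leaves fewer degrees of freedom. With replicate number as a block, 537, 372, 48 and 2011 probe sets were called in these 4 comparisons; among the 71 called genes of 89 named none was lost and Cd74 was gained, and no other call of a named gene changed. Of the 71, 40 kept their call under every alternative with all arrays and 38 under every alternative run; 29 lost it with only the 6 arrays fitted, 9 with median scaling, and 7 to 21 with 1 array left out. Differences are understated where values lie at the floor or close to the array maximum, and with 3 arrays a group small changes can be missed.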

Other observations

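The genes in this section were chosen after their calls were seen and carry no test as groups. All 27 tested genes whose symbols start with Nduf, which mostly encode subunits of mitochondrial complex I, had positive EOM differences, day 14 minus day 7. Of these 8 passed in limma, where 2.59% of all genes were higher, and 6 passed with median scaling. The median over the 27 was 0.60, against -0.06 for all genes. Ndufb10 was at 13.70, 13.48 and 13.85 at day 14 and 12.23, 12.63 and 12.96 at day 7 (1.07 ± 0.20, adjusted p = 0.000566). Ndufc1 was at 14.18, 13.93 and 14.02 at day 14 and 12.88, 13.41 and 13.19 at day 7 (0.88 ± 0.16, adjusted p = 0.000548). In leg 5 of the 27 rose, where 1.98% of all genes did, and their median was 0.48, against -0.03 for all genes.

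All 9 tested Hnrnp genes, which encode proteins that package and splice nuclear RNA, had negative EOM differences. Their median was -0.68, against -0.06 for all genes. Of these 3 fell (1 with median scaling), where 3.76% of all genes were lower. Among them was Hnrnpa1, at 11.10, 11.70 and 11.59 at day 14 and 12.30, 12.41 and 12.57 at day 7 (-0.96 ± 0.27, adjusted p = 0.025). The 3 Srsf splicing factors had a median of -0.61, with 1 called (0 with median scaling).

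Further rises lay outside the lists. Aqp1, a water channel of capillaries and red cells, was at 12.90, 12.64 and 12.36 at day 14 and 11.56, 11.73 and 11.48 at day 7 (1.04 ± 0.28, adjusted p = 0.0197). Car4, the carbonic anhydrase on capillary walls, rose by 1.04 ± 0.25 (adjusted p = 0.00942) and Ace, the angiotensin converting enzyme, by 1.40 ± 0.37 (adjusted p = 0.0177), though its groups overlapped. Vegfa, the vascular growth factor, rose by 0.95 ± 0.27 (adjusted p = 0.0328) in EOM and passed in leg as well (0.95, adjusted p = 0.0433). Of the 12 endothelial and smooth muscle markers none rose and 2 fell, Tagln of smooth muscle and Tpm2, which skeletal muscle also makes. The endothelial genes Pecam1 and Vwf did not pass. The summed intensity of that list was 24983 to 29453 at day 14 and 35333 to 38093 at day 7. That sum mixes endothelial and muscle genes and so gives no measure of capillaries. The part of capillaries in these rises was not tested. Gata6, a factor of endoderm and heart, was at 10.19, 10.41 and 10.16 at day 14 and 12.30, 12.73 and 10.99 at day 7, with replicate 3 again the lowest of day 7 (-1.75 ± 0.36, adjusted p = 0.00175). Ndn and Plagl1, imprinted growth regulators, fell in EOM (-1.39 ± 0.35 and -0.76 ± 0.22) and in leg (-2.29 and -1.53).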
